A study of Mus musculus with 10 samples.

Results

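Among the genes listed for mouse primary hepatocytes, 130 of 18055 had noncoding transcripts only and were expressed. They were selected on 3 conditions: every transcript accession of the gene begins with NR_, the RefSeq prefix for noncoding RNA, its length is at least 200 bases, and its mean FPKM (fragments mapped, scaled by transcript length and library size) over the 10 libraries is at least 5. In all, 1703 genes had noncoding transcripts only, 157 of these reached the FPKM threshold, and 27 of the 157 were shorter than 200 bases. Just inside the threshold were Gm12992 at a mean of 5.16 FPKM, G630025P09Rik at 5.16 and BC039771 at 5.17, and just outside it were Hmga2-ps1 at 4.94, Snhg4 at 4.87 and Gm14403 at 4.80.

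Long noncoding RNAs are transcribed and spliced much like messenger RNAs but are not known to be translated. Some act in the nucleus as scaffolds or guides for proteins, and others matter mainly because small RNAs are cut out of their introns: an Snhg (small nucleolar RNA host gene) carries snoRNAs in its introns, and its spliced exons are often short-lived. A pseudogene is a copy of a coding gene that has lost its reading frame, and a processed pseudogene is a copy made from a spliced messenger RNA, so that short reads from the copy and from the parent can be hard to assign.

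The hepatocytes came from C57BL/6 mice and were cultured with free fatty acids (FFA), either palmitate (PA), a saturated fatty acid, or linoleate (LA), an unsaturated one, with or without Neurotropin (NTP), a drug used against chronic pain. The groups were Vehicle (no FFA and no NTP), PA (200 µM for 24 h), PA+NTP (NTP for 1 h, then 200 µM PA for 24 h), LA (12 µM for 24 h) and LA+NTP (NTP for 1 h, then 12 µM LA for 24 h). Each of the 5 groups had 2 libraries, and no group received NTP alone. Expected counts per library summed to between 13142588 (PA replicate 1) and 60046937 (LA+NTP replicate 2). The labels do not say whether the 2 libraries of a group came from separate cultures or animals, so p-values measure only the spread between these libraries, which may be technical, and a permutation test of 2 against 2 cannot go below an exact p of 0.333.

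All 130 members passed the filter on low counts, each was at 1 FPKM or more in every library, and the lowest expected count of a member in any library was 10 (Snora73b). For 6 members (Snhg16, H2-K2, D930048N14Rik, BC039771, G630025P09Rik and Smim4) the mean FPKM passes the threshold only when a particular group is included. By symbol and RefSeq gene type, 10 members were Snhg genes, 31 were pseudogenes, 73 were other long noncoding RNAs and 2 were structured RNAs (Snora73b and Rn7sk). RefSeq's newer gene table lists a further 10 as coding, among them Mtln, Pigbos1 and Smim4, which encode small proteins, and 4 have no entry in the tables used here. The median level was 16.8 FPKM for the Snhg genes, 28.9 for the pseudogenes and 9.47 for the other long noncoding RNAs. The members were shorter than the 14097 genes tested (median 1527 against 2740 bases) and lower in GC content (median 47.6% against 50.1%).

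Together the members made up between 0.878% and 1.20% of all FPKM in a library. Their summed level was 4564 and 4611 FPKM in Vehicle, 5945 and 6003 in PA, 4743 and 4873 in PA+NTP, 4992 and 5028 in LA, and 4495 and 4607 in LA+NTP. Without the most abundant member, gene 19791, the sums ran from 4134 to 4670 FPKM, with LA lowest. The pseudogenes summed to 1929 and 1895 FPKM in Vehicle, 2256 and 2186 in PA, 2041 and 2174 in PA+NTP, 2139 and 2119 in LA, and 1983 and 2136 in LA+NTP, and the other long noncoding RNAs to 1935 and 1947, 1714 and 1611, 1996 and 1954, 1567 and 1562, and 1840.2 and 1766 in the same order. The Snhg genes summed to 253 and 262 FPKM in Vehicle, 317 and 281 in PA, 283 and 285 in PA+NTP, 259 and 256 in LA, and 239 and 259.7 in LA+NTP.

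The libraries differed in a property that bears on every comparison of PA or LA with another group. The Spearman rank correlation, across genes, between GC content and how far a gene lay from its own average was 0.424 and 0.388 in Vehicle, -0.471 and -0.481 in PA, 0.406 and 0.344 in PA+NTP, -0.571 and -0.564 in LA, and 0.572 and 0.533 in LA+NTP (14020 genes, which are not independent replicates). PA and LA libraries therefore held relatively more signal from AT-rich genes and the other 6 libraries relatively more from GC-rich genes. Calls in a second version of the test, in which every library was first corrected for its GC trend by a fitted curve, are given below as calls after the GC trend was removed. Whether the trend is part of the treatment or of the library preparation was not tested.

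In PA against Vehicle, 19 members were higher and 13 lower by at least 1.5-fold at an adjusted p under 0.05 in edgeR's quasi-likelihood test, against 6.0% higher and 8.92% lower of all 14097 genes tested. The 19 are 14.6% of the members. The median log2 fold change was 0.04 for the members and -0.01 for all genes. Among the 8170 other tested genes with a mean FPKM of at least 5, 6.1% were higher and 7.4% lower. In LA against Vehicle, 16 members were higher and 16 lower (12.3% each), against 3.53% and 7.11% of all genes. BC039771, selected only with Vehicle included, is among the lower members of both lists.

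With NTP added to PA, 17 members were higher and 11 lower than in PA alone, against 8.74% and 5.11% of all genes. The 11 became 9 to 19 when 1 library was left out. The 17 include D930048N14Rik and BC039771, which reach the FPKM threshold only because of groups in which they are high, PA+NTP among them (mean 4.64 for BC039771 without it). The D930048N14Rik call was lost without PA replicate 2 (0.57) or PA+NTP replicate 1 (0.37) and after the GC trend was removed (0.54). Leaving out the 4 members whose selection depends on PA or PA+NTP, a step chosen after the data were seen, 15 of 126 were higher (11.9%) and 11 lower. With NTP added to LA, 20 were higher and 19 lower than in LA alone, against 11.7% and 7.57%. Without the 3 members whose selection depends on LA+NTP, 2 of them (BC039771 and Smim4) called higher, 18 of 127 were higher (14.2%) and 19 lower. The members' median log2 fold changes in these comparisons were 0.10 and -0.04, and those of all genes 0.01 and 0.01. In at least 1 of the 4 comparisons 49 members were called (37.7%, against 28.2% of all genes), and 81 were called in none. The 49 include BC039771, D930048N14Rik, Smim4 and H2-K2, whose selection depends on particular groups, and the share without them is not given. By class, 6 pseudogenes were higher and 2 lower in PA, and 7 other long noncoding RNAs were higher and 9 lower. In LA, 5 pseudogenes were higher and 3 lower, and 8 other long noncoding RNAs were higher and 12 lower. These counts after the GC trend was removed were 7 and 2, and 3 and 12, in PA, and 4 and 2, and 4 and 12, in LA. Of all 14097 genes, 458 were then higher and 746 lower in PA, and 125 and 339 in LA. For NTP these counts were 563 and 290 over PA, and 521 and 284 over LA. For NTP over PA, 5 pseudogenes were higher and 5 lower (3 and 4 after the trend was removed), and 11 other long noncoding RNAs were higher and 3 lower (13 and 3). For NTP over LA, 5 pseudogenes were higher and 6 lower (2 and 5), and 11 other long noncoding RNAs were higher and 10 lower (13 and 3).

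**Figure D1:**
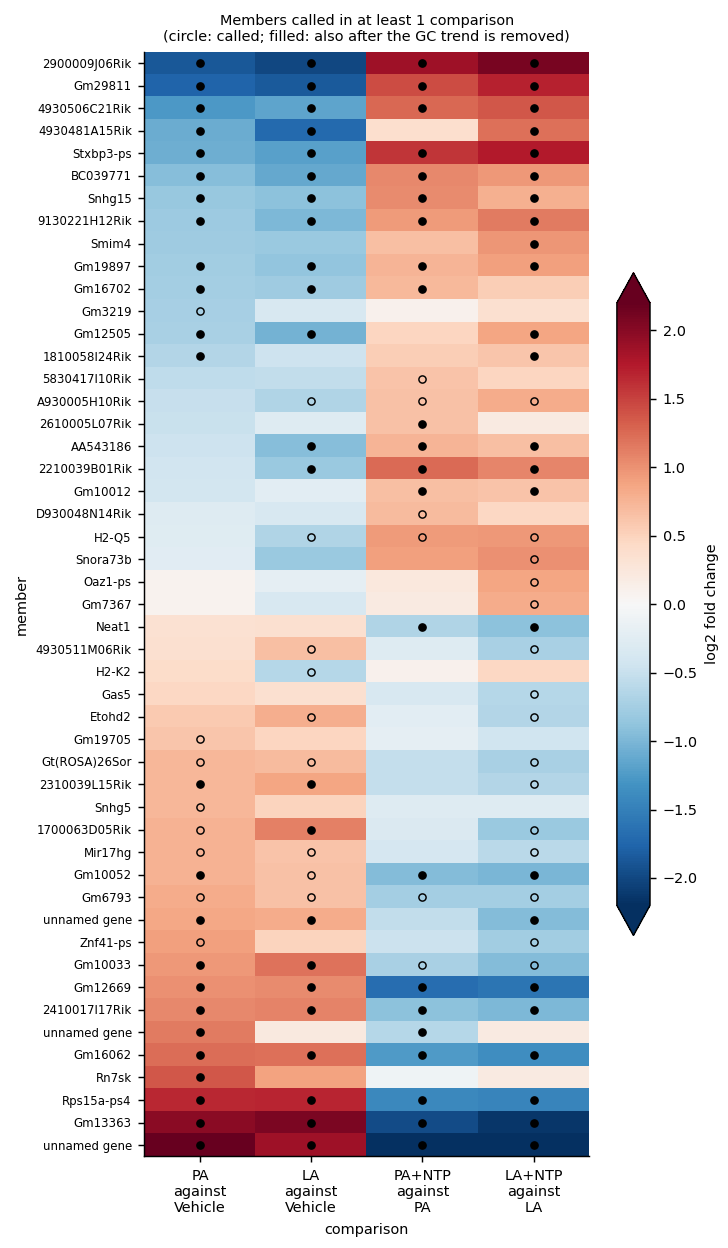
Log2 fold change (colour) of the 49 members called in at least 1 of 4 comparisons, sorted by their value in PA against Vehicle; circles mark calls (adjusted p under 0.05, at least 1.5-fold) and filled circles the calls also made once the GC trend is removed (members without a GC value were not corrected). The members with the largest changes at the top and bottom keep filled circles, while many in the middle, such as Mir17hg, Gas5 and Gm6793, have open ones.

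Of the 10 Snhg genes, Snhg15 was called in all 4 comparisons and Snhg5 in 1, and the other 8 in none. Of all genes, 28.2% were called in at least 1 of the 4. Snhg15 was at 23.1 and 25.3 FPKM in Vehicle, 11.7 and 14.4 in PA, 29.0 and 28.1 in PA+NTP, 12.3 and 12.9 in LA, and 21.4 and 23.3 in LA+NTP. The log2 fold change was -0.83 (SE 0.12, adjusted p = 0.000103 by edgeR's quasi-likelihood test) in PA and -0.90 (SE 0.12) in LA against Vehicle. With NTP it rose by 1.04 (SE 0.12) over PA and by 0.79 (SE 0.12) over LA, and all 4 calls were also made after the GC trend was removed.

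Snhg5 was at 11.4 and 10.0 FPKM in Vehicle, 18.4 and 16.4 in PA, 15.5 and 13.9 in PA+NTP, 15.8 and 13.1 in LA, and 12.8 and 11.7 in LA+NTP. It rose by 0.73 (SE 0.12) in PA, a call that was not made once the GC trend was removed (0.52). Its transcript has a GC content of 45.1%, against 53.2% for Snhg15.

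Snhg6, the most abundant of the class, was at 103 and 108 FPKM in Vehicle, 148 and 132 in PA, 106 and 116 in PA+NTP, 118 and 114 in LA, and 92.2 and 111 in LA+NTP. Its log2 fold change in PA was 0.43 (adjusted p = 0.00249 by edgeR's quasi-likelihood test), under the 1.5-fold threshold, and 0.14 after the GC trend was removed. Snhg1 lay between 34.8 and 52.0 FPKM with its highest values in PA (log2 fold change 0.40, and 0.07 after that step), and Snhg12 between 19.7 and 33.9 with its lowest value in PA (-0.42, and -0.43 after it). Snhg8, Snhg17 and Snhg16 had log2 fold changes in PA of 0.17, -0.03 and -0.04 (-0.01, 0.13 and 0.15 after it).

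Snhg3, which hosts Snora73b, was at 16.8 and 16.6 FPKM in Vehicle and 27.97 and 20.7 in PA, and its log2 fold change of 0.54 (0.18 after the GC trend was removed) lay under the threshold. Snhg14, a long transcript of the imprinted Snrpn region that runs antisense to Ube3a, was at 6.61 and 6.34 FPKM in Vehicle, 7.74 and 7.56 in PA and 4.91 and 5.21 in LA+NTP, and none of its 4 comparisons passed the threshold (0.27, 0.17, -0.47 and -0.51). Every sign turned once the GC trend was removed (-0.24, -0.37, 0.06 and 0.14). Ube3a shares 48.2% of the 31-base sequences of Snhg14, lies on the opposite strand and was called in all 4 (0.66, 0.64, -0.73 and -0.82). Strandedness of the libraries is not stated in the sources used here, so reads over the part they share cannot be assigned to 1 of them.

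**Figure D2:**
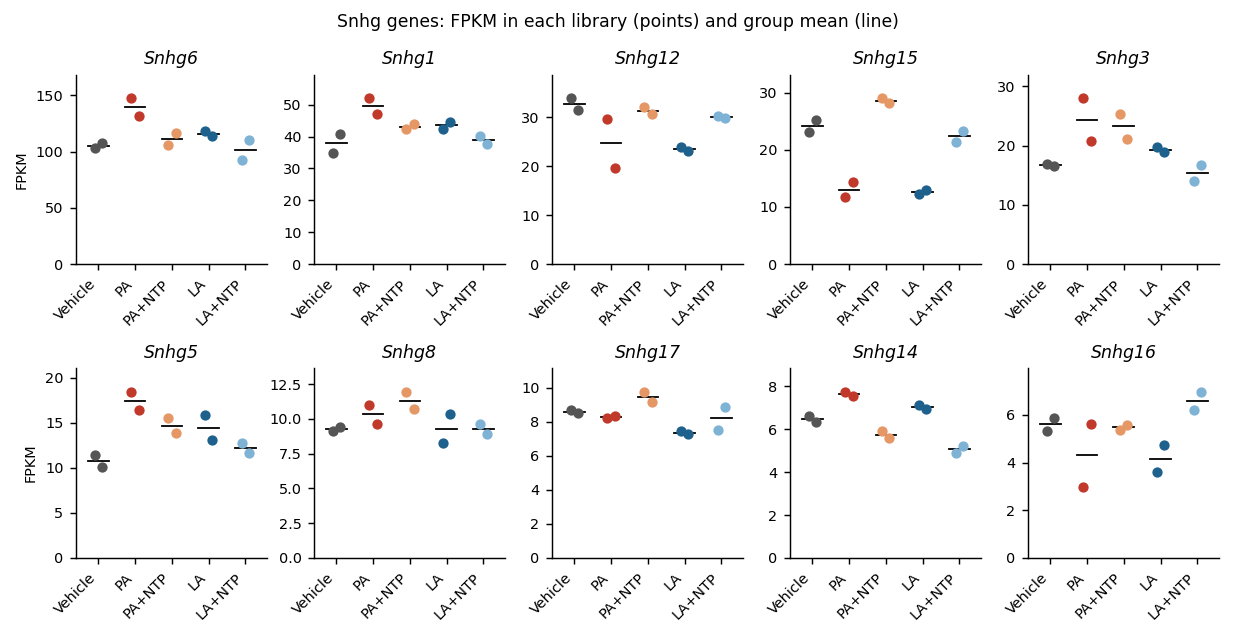
FPKM of the 10 Snhg genes in each library (points, 2 per group) with the group mean (line). Snhg15 sits at 11.7 to 14.4 FPKM in the PA and LA libraries and at 21.4 to 29.0 in the others, and no other Snhg gene separates those libraries to the same extent. All PA and LA libraries lie below all others for 21.7% of all genes tested.

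The promoters of 4 members are shown because these members were called in all 4 comparisons, which others such as Gm13363, Rps15a-ps4 and Stxbp3-ps were too. They were chosen after their values were seen, 3 of them lower and 1 (Gm16062) higher in PA and LA than in Vehicle. The promoters come from RefSeq on GRCm38.p6, run 5′ to 3′ from 250 bases before to 50 bases after the start, and lie at chr11:6528711-6529010 (minus strand) for Snhg15, chr1:127774005-127774304 (minus) for 2900009J06Rik, chr3:132878547-132878846 (minus) for Gm29811 and chr11:59809830-59810129 (plus) for Gm16062. Capitals mark matches on either strand to 6 motifs: the GC box written as GGGCGG, the E-box written as CACGTG, the cAMP response element written as TGACGTCA, the nuclear receptor element written as AGGTCA, the CCAAT box, and the core promoter motif written as TATAAA.
Snhg15: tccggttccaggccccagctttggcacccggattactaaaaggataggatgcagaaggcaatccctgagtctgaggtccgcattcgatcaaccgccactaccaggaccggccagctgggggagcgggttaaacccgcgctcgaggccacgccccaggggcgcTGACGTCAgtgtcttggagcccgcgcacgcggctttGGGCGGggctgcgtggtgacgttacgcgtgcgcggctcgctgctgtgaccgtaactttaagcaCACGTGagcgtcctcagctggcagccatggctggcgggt
2900009J06Rik: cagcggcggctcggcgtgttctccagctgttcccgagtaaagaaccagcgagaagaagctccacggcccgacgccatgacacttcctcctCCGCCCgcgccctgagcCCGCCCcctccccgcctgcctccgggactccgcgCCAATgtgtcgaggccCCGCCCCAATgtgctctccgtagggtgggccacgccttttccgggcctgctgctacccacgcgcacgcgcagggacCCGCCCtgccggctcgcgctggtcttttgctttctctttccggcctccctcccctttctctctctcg
Gm29811: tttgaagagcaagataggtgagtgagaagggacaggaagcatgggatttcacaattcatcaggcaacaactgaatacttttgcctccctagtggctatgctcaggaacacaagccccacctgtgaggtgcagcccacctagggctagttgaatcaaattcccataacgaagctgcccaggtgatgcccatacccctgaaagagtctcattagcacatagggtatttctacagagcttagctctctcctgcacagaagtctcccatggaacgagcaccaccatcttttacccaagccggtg
Gm16062: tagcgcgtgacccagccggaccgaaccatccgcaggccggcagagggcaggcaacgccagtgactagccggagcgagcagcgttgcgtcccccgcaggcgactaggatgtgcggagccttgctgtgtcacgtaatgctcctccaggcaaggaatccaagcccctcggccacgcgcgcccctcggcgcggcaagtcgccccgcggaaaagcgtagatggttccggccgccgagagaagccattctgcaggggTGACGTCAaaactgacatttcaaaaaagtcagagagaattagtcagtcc
Snhg15 held 1 GC box, 1 E-box and 1 cAMP response element, 2900009J06Rik held 4 GC boxes and 2 CCAAT boxes, of which 1 pair overlaps, Gm16062 held 1 cAMP response element, and Gm29811 held none of the 6. Of all 32851 promoters in the table, 13.6% hold TATAAA, 37.4% a CCAAT box, 35.7% a GC box, 7.15% an E-box, 1.79% a cAMP response element and 16.3% a nuclear receptor element. The table holds 88 promoters of 76 members, and for these the shares in the same order are 11.4%, 37.5%, 47.7%, 6.82%, 5.68% (5 promoters) and 7.95%. A match is a description of these letters and not evidence of a bound site.

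The 31 pseudogenes had a median log2 fold change of 0.14 in PA (quartiles -0.19 and 0.26) and of 0.01 in LA. Gm13363, which resembles the phosphatase gene Ptp4a1, was at 19.2 and 30.9 FPKM in Vehicle, 95.6 and 99.3 in PA, 29.1 and 23.2 in PA+NTP, 114 and 90.2 in LA, and 20.4 and 27.0 in LA+NTP. All 4 PA and LA libraries lay above 90 FPKM and all others under 31. Of all genes tested, 16.8% had all PA and LA libraries above all others, as did 17.7% of the members. Its log2 fold changes were 1.98 (SE 0.18) in PA and 2.07 (SE 0.18) in LA against Vehicle, and it fell by 1.96 with NTP over PA and by 2.14 over LA.

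The GENCODE transcript of Gm13363 shares 81.1% of its 31-base sequences with Ptp4a1, but it has 522 bases and the transcript counted here 2790, so the share is unknown for most of that RNA. Ptp4a1 was at 209.6 and 214 FPKM in Vehicle, 256 and 276 in PA, 203 and 201 in PA+NTP, 289 and 263 in LA, and 204 and 202 in LA+NTP. Its log2 fold changes (0.36, 0.43, -0.46 and -0.49) had the signs of those of the pseudogene but stayed under the threshold. Gm12669, which resembles the glutaredoxin gene Glrx3, was at 66.4 and 65.8 FPKM in Vehicle, 116 and 141 in PA, 49.3 and 34.6 in PA+NTP, 135 and 129 in LA, and 47.1 and 41.9 in LA+NTP. It rose by 1.00 (SE 0.12) in PA and 1.04 (SE 0.12) in LA, and fell by 1.68 and 1.61 with NTP. Glrx3, with which it shares 85.5% of its 31-base sequences, was called in none of the 4 comparisons (0.20, 0.05, -0.22 and -0.17).

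Rps15a-ps4, a copy of a gene for a protein of the small ribosomal subunit, was at 36.1 and 34.5 FPKM in Vehicle, 109 and 109 in PA, 38.3 and 47.0 in PA+NTP, 128 and 90.1 in LA, and 39.9 and 42.1 in LA+NTP. It rose by 1.66 (SE 0.14) in PA and 1.68 (SE 0.14) in LA, and fell by 1.41 and 1.45 with NTP. Its parent Rps15a had log2 fold changes of -0.31 and -0.46 in PA and LA, and another copy, Rps15a-ps6, of 0.14 and -0.13, none of them called. Rps15a-ps4 shares 47.0% of its 31-base sequences with Rps15a and Rps15a-ps6 68.6%. The GENCODE transcript of Rps15a-ps6 has 393 bases against 824 counted. The split of reads between these genes is therefore uncertain. E030024N20Rik, another abundant pseudogene, lay between 151 and 221 FPKM and was not called.

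Gm10052, whose GENCODE transcript (960 of the 1428 bases counted) has all its 31-base sequences in the splicing factor gene Hnrnpa1, was at 209 and 198 FPKM in Vehicle, 345 and 334 in PA, 189 and 175 in PA+NTP, 293 and 323 in LA, and 174 and 141 in LA+NTP. It was called in all 4 comparisons (0.77, 0.64, -0.96 and -1.01), and the LA value fell just under the fold threshold after the GC trend was removed (0.57) and without LA replicate 2 (0.57). Hnrnpa1 itself lay between 112 and 165 FPKM and was called in none of the 4 comparisons. Gm6793, which shares 78.1% with Hnrnpa3, another gene of the same family, was called in all 4 (0.82, 0.64, -0.74 and -0.74), as was Hnrnpa3 (0.84, 0.64, -0.93 and -0.95). None of the 4 Gm6793 calls was made after the GC trend was removed (0.56, 0.36, -0.46 and -0.39), and its values fell under the fold threshold in LA without Vehicle replicate 2 (0.58) and in PA+NTP against PA without PA replicate 1 (-0.57).

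Stxbp3-ps went the other way from its parent. The pseudogene was at 82.3 and 86.6 FPKM in Vehicle, 37.7 and 40.9 in PA, 113 and 133 in PA+NTP, 36.0 and 35.1 in LA, and 97.1 and 146 in LA+NTP. Stxbp3, a gene for a syntaxin-binding protein of vesicle fusion, was at 19.15 and 18.4 FPKM in Vehicle, 27.6 and 30.4 in PA, 17.9 and 18.25 in PA+NTP, 31.6 and 31.6 in LA, and 16.65 and 17.6 in LA+NTP. The pseudogene fell by 1.07 (SE 0.15) in PA and by 1.20 (SE 0.15) in LA and rose by 1.58 and 1.74 with NTP, while Stxbp3 rose by 0.67 and 0.80 and fell by 0.75 and 0.92. The pair share 80.2% of the 31-base sequences of the pseudogene's GENCODE transcript, which has 758 bases against 1007 counted.

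Over the 16 pseudogenes that share at least 50% of their 31-base sequences with 1 tested coding gene, 7 were called in PA against Vehicle, 5 higher and 2 lower (6.0% and 8.92% of all genes). The coding gene had the same call for 2 of these (Gm6793 and Znf41-ps), the opposite call for 1 (Stxbp3-ps) and none for 4. In LA+NTP against LA 9 of the 16 were called, 4 higher and 5 lower (11.7% and 7.57% of all genes), and the coding gene had the same call for 3 (Gm10012, Gm6793 and Gm7367), the opposite call for 1 and none for 5. The calls of Gm6793 and Znf41-ps in PA and of Gm6793 and Gm7367 in LA+NTP against LA were not made after the GC trend was removed. Expected counts divide reads that match several transcripts by an estimate, so the split between a pseudogene and its parent is uncertain for all of these pairs.

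**Figure D3:**
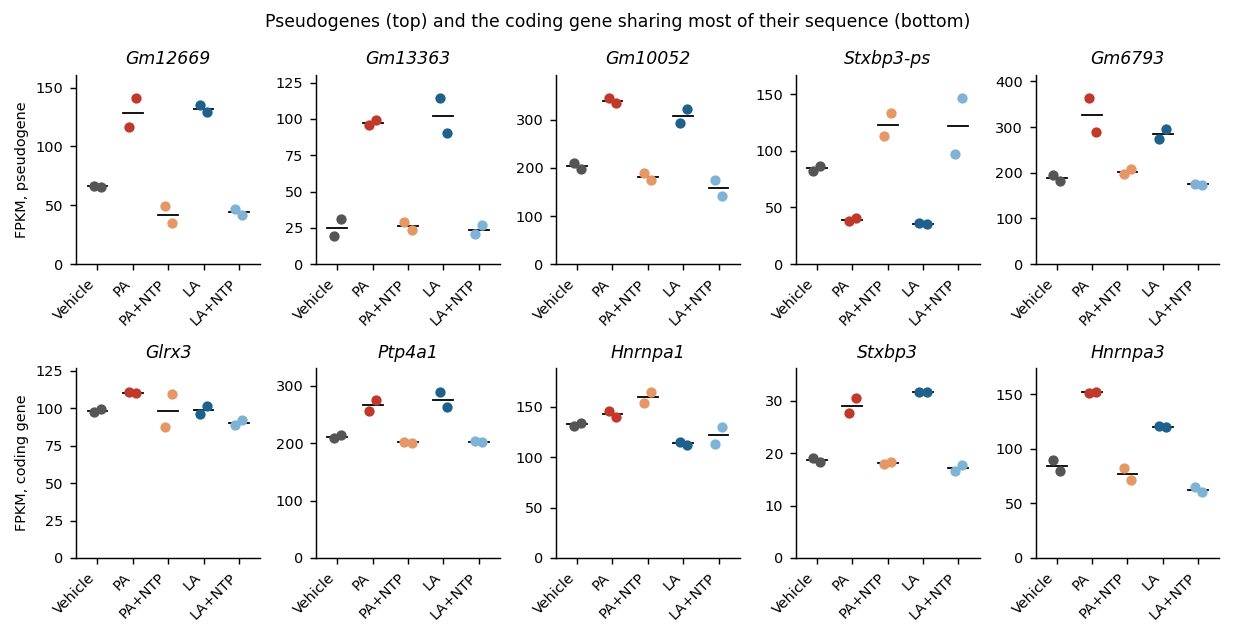
FPKM in each library (points) and group mean (line) of 5 pseudogenes (top) and of the coding gene that shares most of each one's sequence (bottom). Gm12669, Gm13363 and Gm10052 separate the PA and LA libraries from the rest far more than Glrx3, Ptp4a1 and Hnrnpa1 do, and Stxbp3-ps and Stxbp3 move in opposite directions.

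The most abundant pseudogene, Gm10012, shares 65.2% of its 31-base sequences with Cox7c, which encodes a subunit of cytochrome c oxidase. It was at 457 and 463 FPKM in Vehicle, 342 and 339.6 in PA, 519 and 611 in PA+NTP, 386 and 369 in LA, and 576 and 624 in LA+NTP. Over PA it rose by 0.67 (SE 0.08) and over LA by 0.63 (SE 0.08). These calls were not made without PA+NTP replicate 2 (0.52) and without LA+NTP replicate 2 (0.56), where the values fell under the fold threshold. With a GC content of 37.9%, Gm10012 had larger values after the GC trend was removed: 1.17 over PA and 1.25 over LA, and it was then also called lower in PA (-0.89) and LA (-0.75), where the uncorrected values were -0.40 and -0.24. Cox7c rose by 1.25 and 1.36 in the same comparisons.

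H2-Q5 and H2-K2, class I histocompatibility genes listed as pseudogenes and named after their values were seen, belong to a family whose members share much sequence. H2-Q5 was at 29.3 and 25.6 FPKM in Vehicle, 22.9 and 21.8 in PA, 48.5 and 39.9 in PA+NTP, 15.96 and 17.9 in LA, and 32.3 and 35.1 in LA+NTP. It fell by 0.66 (SE 0.11) in LA and rose by 0.93 and 0.96 with NTP, and none of these calls was made after the GC trend was removed. The LA call also fell under the fold threshold without Vehicle replicate 1 (-0.56) or LA replicate 1 (-0.57). H2-K2 fell by 0.62 in LA, and that call was lost without Vehicle replicate 1 (-0.60), Vehicle replicate 2 (-0.64) or LA replicate 2 (-0.37), while without LA replicate 1 the value was -0.95. After the GC trend was removed H2-K2 was not called in LA (-0.26) but was called higher in PA (0.72). H2-K2 reaches the FPKM threshold only because of PA and PA+NTP (mean 4.97 without PA), so its selection is not independent of the PA value.

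Of the 73 other long noncoding RNAs, 2900009J06Rik had the largest falls. It was at 7.74 and 8.54 FPKM in Vehicle, 2.77 and 1.92 in PA, 7.40 and 9.34 in PA+NTP, 2.25 and 1.63 in LA, and 7.91 and 9.24 in LA+NTP. Its 4 PA and LA libraries lay under 2.8 FPKM and its others above 7. Of all genes tested, 21.7% had all PA and LA libraries below all others, as did 24.6% of the members. It fell by 1.86 (SE 0.29) in PA and by 2.0 (SE 0.28) in LA and rose by 1.87 (SE 0.28) and 2.08 (SE 0.27) with NTP, on a lowest expected count of 16 in a library.

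The transcript of 2900009J06Rik overlaps an exon of Acmsd, an enzyme of tryptophan breakdown, on the opposite strand. Acmsd was at 14.4 and 13.2 FPKM in Vehicle, 7.26 and 7.84 in PA, 8.68 and 5.63 in PA+NTP, 17.03 and 17.05 in LA, and 16.3 and 14.0 in LA+NTP. It was lower in PA (-0.83) and not called in the other 3 comparisons (0.35, -0.15 and -0.21). Gm29811 was at 10.4 and 10.0 FPKM in Vehicle, 3.43 and 2.65 in PA, 6.62 and 9.91 in PA+NTP, 2.85 and 2.66 in LA, and 9.90 and 8.48 in LA+NTP. It fell by 1.77 (SE 0.19) in PA and by 1.84 (SE 0.19) in LA, and rose by 1.44 and 1.69 with NTP. It lies 514 bases from Tbck, which was called in none of the 4 (-0.09, -0.19, -0.06 and -0.05).

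4930506C21Rik was at 10.1 and 12.0 FPKM in Vehicle, 3.18 and 5.25 in PA, 10.5 and 11.9 in PA+NTP, 3.30 and 6.58 in LA, and 11.7 and 13.8 in LA+NTP. It was called in all 4 comparisons (-1.27, -1.16, 1.26 and 1.37), and without LA replicate 1 its LA value was -0.71. It overlaps an exon of Mpc1, a subunit of the mitochondrial pyruvate carrier, on the opposite strand, and Mpc1 was called in none of them (0.03, 0.27, -0.19 and -0.22). 9130221H12Rik, antisense to the kinase gene Gsk3a, was also called in all 4 (-0.80, -0.98, 0.94 and 1.15), and so was Gsk3a (-0.74, -0.71, 0.82 and 0.82). It shares 48.2% of its 31-base sequences with Gsk3a, and without strand the reads over that part cannot be assigned to 1 of them.

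4930481A15Rik was at 12.8 and 11.4 FPKM in Vehicle, 6.94 and 5.05 in PA, 7.51 and 7.03 in PA+NTP, 2.89 and 3.34 in LA, and 8.95 and 7.18 in LA+NTP. It fell by 1.09 (SE 0.17) in PA and by 1.71 (SE 0.17) in LA, rose by 1.22 (SE 0.17) with NTP under LA, and was not called with NTP under PA (0.37, SE 0.17). 2210039B01Rik had its highest values in the groups with NTP: 38.4 and 43.5 FPKM in Vehicle, 33.7 and 27.2 in PA, 81.6 and 66.9 in PA+NTP, 20.9 and 24.5 in LA, and 44.9 and 53.0 in LA+NTP. It fell by 0.82 (SE 0.13) in LA, was called in PA only after the GC trend was removed (-0.42 before, -0.60 after), and rose by 1.25 (SE 0.12) over PA and by 1.08 (SE 0.12) over LA.

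Gm12505, the most abundant of the class, was at 546 and 579 FPKM in Vehicle, 373 and 299.97 in PA, 420.4 and 550.0 in PA+NTP, 276 and 253 in LA, and 536 and 462 in LA+NTP. Of the next most abundant, Malat1 is described below, and 2410006H16Rik (-0.26 and -0.36 in PA and LA), 1110038B12Rik (-0.48 and -0.51) and Gm20362 (-0.50 and -0.58) were called in none of the 4 comparisons. After the GC trend was removed Gm20362 was called in all 4 (-0.91, -1.01, 0.84 and 0.73). Gm12505 fell by 0.71 (SE 0.12) in PA and by 1.04 (SE 0.12) in LA, and rose by 0.87 with NTP under LA. The PA call was lost without PA replicate 2 (-0.56). Gm12505 shares 7.7% of its 31-base sequences with other genes, the nearest coding gene is 18206 bases away, and no exon overlaps it.

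BC039771 was at 6.31 and 6.80 FPKM in Vehicle, 2.65 and 3.79 in PA, 9.06 and 5.55 in PA+NTP, 3.27 and 2.54 in LA, and 5.97 and 5.75 in LA+NTP. It was called in all 4 comparisons (-0.94, -1.12, 1.06 and 0.96), and without PA+NTP replicate 1 its value over PA was 0.69. BC039771 reaches the FPKM threshold only because of groups in which it is high (mean 4.82 without Vehicle and 4.64 without PA+NTP), so its selection is not independent of these differences. 1700063D05Rik rose by 1.1 (SE 0.24) in LA and by 0.76 (SE 0.25) in PA, and the PA call was lost without either Vehicle library (0.79 and 0.72) or without PA replicate 2 (0.53). It fell by 0.82 with NTP under LA, which was not called without LA replicate 2 (-0.73) or LA+NTP replicate 1 (-0.66). Neither the PA call nor the LA+NTP call was made after the GC trend was removed.

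Among the members that rose, Gm16062 was at 9.14 and 6.93 FPKM in Vehicle, 18.99 and 17.7 in PA, 8.23 and 7.72 in PA+NTP, 16.4 and 19.2 in LA, and 7.35 and 6.88 in LA+NTP. It rose by 1.23 (SE 0.16) in PA and 1.21 (SE 0.16) in LA, and fell by 1.25 and 1.36 with NTP. It lies across Cops3, a subunit of the COP9 signalosome, on the opposite strand, and Cops3 had the same signs at smaller size (0.41, 0.42, -0.37 and -0.45). 2410017I17Rik, in the histocompatibility region of chromosome 17 and named after its values were seen, was at 11.1 and 12.7 FPKM in Vehicle, 27.6 and 21.6 in PA, 14.6 and 12.3 in PA+NTP, 25.1 and 24.2 in LA, and 14.4 and 11.4 in LA+NTP. It rose by 1.05 and 1.09 and fell by 0.91 and 0.99, and with a GC content of 59.8% it moved against the trend of GC-rich genes. After that trend was removed the falls with NTP were larger (-1.37 and -1.59).

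**Figure D4:**
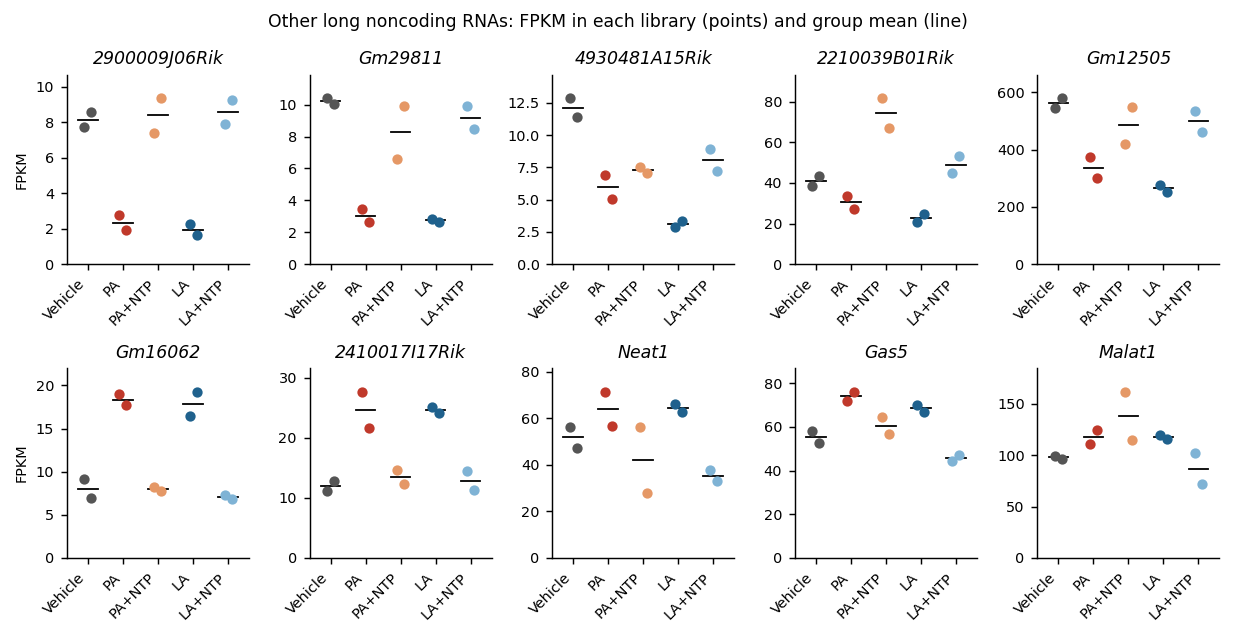
FPKM of 10 other long noncoding RNAs in each library (points) with the group mean (line). In the PA and LA libraries 2900009J06Rik, Gm29811 and Gm12505 are low and Gm16062 and 2410017I17Rik high, whereas Neat1 is lowest in LA+NTP and 1 PA+NTP library and Malat1 shows no separation of PA and LA from the rest.

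Of the RNAs of nuclear architecture, Neat1 was called in both NTP comparisons, also after the GC trend was removed. Neat1, the scaffold of paraspeckles, was at 56.4 and 47.1 FPKM in Vehicle, 71.3 and 56.6 in PA, 56.2 and 27.9 in PA+NTP, 65.9 and 62.8 in LA, and 38.0 and 32.9 in LA+NTP. Neither FFA passed the test against Vehicle (0.33 and 0.36, SE 0.21 each). With NTP it fell by 0.90 (SE 0.21) under LA and by 0.66 (SE 0.21) under PA. The PA+NTP libraries differed from each other by more than PA from Vehicle: without PA+NTP replicate 2 the value was -0.27, without PA replicate 1 it was -0.49, neither of them called, and without PA+NTP replicate 1 it was -1.22.

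Malat1, an abundant RNA of nuclear speckles, was at 98.9 and 96.6 FPKM in Vehicle, 111 and 125 in PA, 161 and 115 in PA+NTP, 119.8 and 116 in LA, and 102 and 71.8 in LA+NTP. It was called in none of the 4 comparisons (0.30, 0.32, 0.17 and -0.48). Norad, which binds Pumilio proteins, lay between 33.2 and 44.0 FPKM and Firre, an X-linked RNA, between 14.4 and 23.4, and neither was called.

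Gas5, a snoRNA host gene outside the Snhg name, was at 58.1 and 52.7 FPKM in Vehicle, 72.0 and 75.9 in PA, 64.6 and 56.6 in PA+NTP, 70.0 and 66.8 in LA, and 44.4 and 47.0 in LA+NTP. It fell by 0.62 (SE 0.07) with NTP under LA, which fell under the fold threshold without LA+NTP replicate 1 (-0.58) and was not called after the GC trend was removed. Mir17hg, the host of a microRNA cluster, was at 4.60 and 4.96 FPKM in Vehicle, 7.43 and 8.43 in PA, 7.74 and 5.16 in PA+NTP, 7.38 and 6.98 in LA, and 4.66 and 5.07 in LA+NTP. It rose by 0.77 in PA and 0.63 in LA and fell by 0.60 with NTP under LA, and none of these was called after the GC trend was removed. The LA values fell under the fold threshold without Vehicle replicate 1 (0.58), and those of LA+NTP against LA without LA replicate 1 (-0.56) or LA+NTP replicate 1 (-0.54). Mir22hg lay between 6.99 and 12.98 FPKM and Epb41l4aos, also a snoRNA host, between 28.5 and 40.0, and neither was called.

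Both structured RNAs rested on few reads. Rn7sk, which holds the elongation kinase P-TEFb inactive, was at 4.42 and 2.59 FPKM in Vehicle, 11.4 and 6.81 in PA, 4.86 and 11.9 in PA+NTP, 7.81 and 4.21 in LA, and 7.39 and 7.02 in LA+NTP. Its log2 fold change of 1.37 (SE 0.48) in PA was called, but not without Vehicle replicate 2 (1.00) or PA replicate 1 (1.03). Snora73b was higher in LA+NTP than in LA by 1.01 (SE 0.39), with values between 2.57 and 15.4 FPKM. That call was lost when any 1 of 5 libraries was left out: both Vehicle libraries (1.01 each), LA replicate 2 (0.55), LA+NTP replicate 1 (1.01) or LA+NTP replicate 2 (1.01), and without LA replicate 1 the value was 1.82. It was not made after the GC trend was removed either (0.66).

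Of the 10 members that RefSeq now lists as coding, Gm10033 was higher in both FFA groups, at 3.82 and 3.87 FPKM in Vehicle, 7.78 and 6.94 in PA, 4.43 and 4.75 in PA+NTP, 9.20 and 7.64 in LA, and 4.43 and 4.77 in LA+NTP. It rose by 0.95 (SE 0.14) and 1.20 (SE 0.13), and fell by 0.72 and 0.95 with NTP. After the GC trend was removed the PA and LA calls were still made and both NTP calls were not. 1810058I24Rik fell by 0.65 (SE 0.09) in PA and rose by 0.61 (SE 0.08) with NTP under LA. The second of these fell under the fold threshold without LA replicate 2 (0.56) or LA+NTP replicate 2 (0.57). Smim4 was higher in LA+NTP than in LA (0.97, SE 0.33), but not without LA replicate 1 (0.73) or LA+NTP replicate 2 (0.89). It reaches the FPKM threshold only because of LA+NTP (mean 4.85 without that group), so its selection is not independent of this difference. Mtln, Rhno1, Inafm2, Pigbos1, BC029722, 0610012G03Rik and 2610001J05Rik were called in none of the 4 comparisons.

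Of the 4 members with no entry in the tables, gene 19791 was the most abundant member in PA and LA. It was at 213 and 272 FPKM in Vehicle, 1450 and 1721 in PA, 191 and 203 in PA+NTP, 815 and 894 in LA, and 181 and 187 in LA+NTP. It rose by 2.74 (SE 0.11, adjusted p = 1.85e-09 by edgeR's quasi-likelihood test) in PA and by 1.86 (SE 0.10) in LA, and with NTP the changes were -3.07 and -2.26. Gene 100861531 was at 4.95 and 5.90 FPKM in Vehicle, 10.5 and 12.9 in PA, 8.49 and 7.46 in PA+NTP, 6.36 and 5.80 in LA, and 7.26 and 7.03 in LA+NTP. It rose by 1.15 (SE 0.10) in PA and was not called in LA (0.21, SE 0.10). Its fall with NTP under PA (-0.62) went under the fold threshold without PA replicate 2 (-0.47) or PA+NTP replicate 2 (-0.56). Neither ID is paired with a name in the tables, so what kind of RNA they are is unknown here, and their GC content was not computed. Their lengths are 1870 and 13404 bases. RNA that library preparation is meant to remove is not excluded, so their values, and the excess of the summed level in PA and LA, cannot be read as those of long noncoding RNA.

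Against Vehicle, few members differed once NTP was present. In PA+NTP, 2 members were higher (H2-Q5 and 2210039B01Rik) and 4 lower (Gm12669, Gm3219, 4931408D14Rik and 4930481A15Rik), against 1.21% and 1.64% of all genes. Both counts moved by more than 1.5-fold when certain single libraries were left out, as given in the section on processing. 4931408D14Rik was at 43.8 and 44.1 FPKM in Vehicle, 28.8 and 29.5 in PA, 24.8 and 24.8 in PA+NTP, 40.8 and 38.8 in LA, and 40.4 and 39.4 in LA+NTP. Low in both palmitate groups and near Vehicle in both linoleate groups, it was the member with the lowest adjusted p in this comparison (-0.85, SE 0.06, 1.52e-06 by edgeR's quasi-likelihood test). In PA alone its log2 fold change of -0.56 was under the threshold. This gene was named after its values were seen.

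In LA+NTP against Vehicle, 0 members were called in either direction by edgeR's quasi-likelihood test, against 0.0567% higher and 0.0355% lower of all genes, and DESeq2 also called 0. At an unadjusted p under 0.05 there were 26 members and 2014 genes. A p that misses the threshold does not show that the levels were the same.

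The FFA groups were also compared directly. Between PA and LA, 4 members were higher in PA (H2-K2, 4930481A15Rik, gene 19791 and gene 100861531) and 1 was lower (Gm17644), against 1.18% and 2.04% of all genes. What kind of RNA genes 19791 and 100861531 are is unknown here. H2-K2 reaches the FPKM threshold only because of PA and PA+NTP (mean 4.97 without PA and 4.79 without PA+NTP), the groups in which it is counted as higher. Between PA+NTP and LA+NTP, 3 were higher (Znf41-ps, H2-K2 and Malat1) and 2 lower (Gm3219 and 4931408D14Rik), against 1.38% and 2.45%. After the GC trend was removed, H2-K2 of these 5 was still called and Znf41-ps, Malat1 and Gm3219 were not, while 4931408D14Rik has no GC value and could not be corrected. The NTP effect differed between PA and LA for 0 members and 0.0% of all genes by edgeR's quasi-likelihood test, with 24 members and 1029 genes at an unadjusted p under 0.05. The 0 depends on the filter on low counts, without which 8 members and 65 genes were called. The lowest adjusted p of a member with the filter was 0.17 (gene 100861531, whose fall with NTP was seen under PA).

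Comparisons that share a group share libraries, and their values are given side by side above without a count of common calls. PA against Vehicle and LA+NTP against LA have no library in common. Of the 19 members higher in PA and the 19 lower with NTP under LA, 15 were the same (78.9% of each list), and for all genes 453 were common (53.5% of the first list and 42.5% of the second). Of the 13 members lower in PA and the 20 higher with NTP under LA, 11 were the same (84.6% and 55.0%), against 762 genes (60.6% and 46.2%). BC039771, selected only because of groups in which it is high, Vehicle and LA+NTP among them, is in both lists. Smim4, selected only because of LA+NTP, is among the 20. The selection of these members is not independent of their calls, and no share without them is given. LA against Vehicle and PA+NTP against PA are separate too: 9 members were both higher in LA and lower with NTP under PA (56.2% and 81.8%, against 285 genes, 57.2% and 39.5%), and 13 were lower in LA and higher with NTP under PA (81.2% and 76.5%, against 673 genes, 67.2% and 54.6%). The 13 include BC039771, and the members higher with NTP under PA include D930048N14Rik. Both were selected only because of groups in which they are high, PA+NTP among them, so the same limit holds. No member was called in the same direction in both comparisons of a pair.

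With the GC trend removed from each library, 12 of the 19 members higher in PA and 12 of the 13 lower were still called. For LA the counts were 10 of 16 and 13 of 16, for NTP over PA 13 of 17 and 9 of 11, and for NTP over LA 15 of 20 higher and 9 of 19 lower. Over all genes, 299 of 846 higher in PA and 584 of 1257 lower were still called, 82 of 498 and 274 of 1002 for LA, 455 of 1232 and 172 of 721 for NTP over PA, and 430 of 1651 and 166 of 1067 for NTP over LA. New calls were made as well: 3 members higher and 5 lower in PA (17 lower in all), 1 and 2 in LA, 5 and 0 for NTP over PA, and 3 and 1 for NTP over LA. The 3 higher in PA include H2-K2, which was selected only because of PA and PA+NTP. The 10 members no longer lower with NTP under LA had a median GC content of 43.6% and included Gas5, Mir17hg, Gm6793, Znf41-ps and Gt(ROSA)26Sor, the last of them the RNA of a locus often used to insert transgenes. Of the 9 that were still called, those with a GC value had a median of 46.8%. Common calls after this step, in the order of the pairs above, were 9 (of 15 and 10 members), 16 (of 17 and 18), 6 (of 11 and 9) and 13 (of 15 and 18), against 131 (of 458 and 284), 265 (of 746 and 521), 78 (of 125 and 290) and 229 (of 339 and 563) over all genes. BC039771 and Smim4, selected only because of groups in which they are high, are among the 16, and BC039771 is among the 13. Gene IDs without a GC value, 10 of them members, were left as they were, so their calls after this step say nothing about the trend. Of the 4 members known only by a gene ID, which lack a GC value, 3 were kept as higher in PA and 2 in LA. In each NTP comparison 2 of the 4 were kept as lower. How many other kept or common calls are of uncorrected members is not given. A GC value was found for 120 of the 130 members and 14020 of the 14097 genes tested. The kept and common shares of members and of all genes are therefore not on equal terms.

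**Figure D5:**
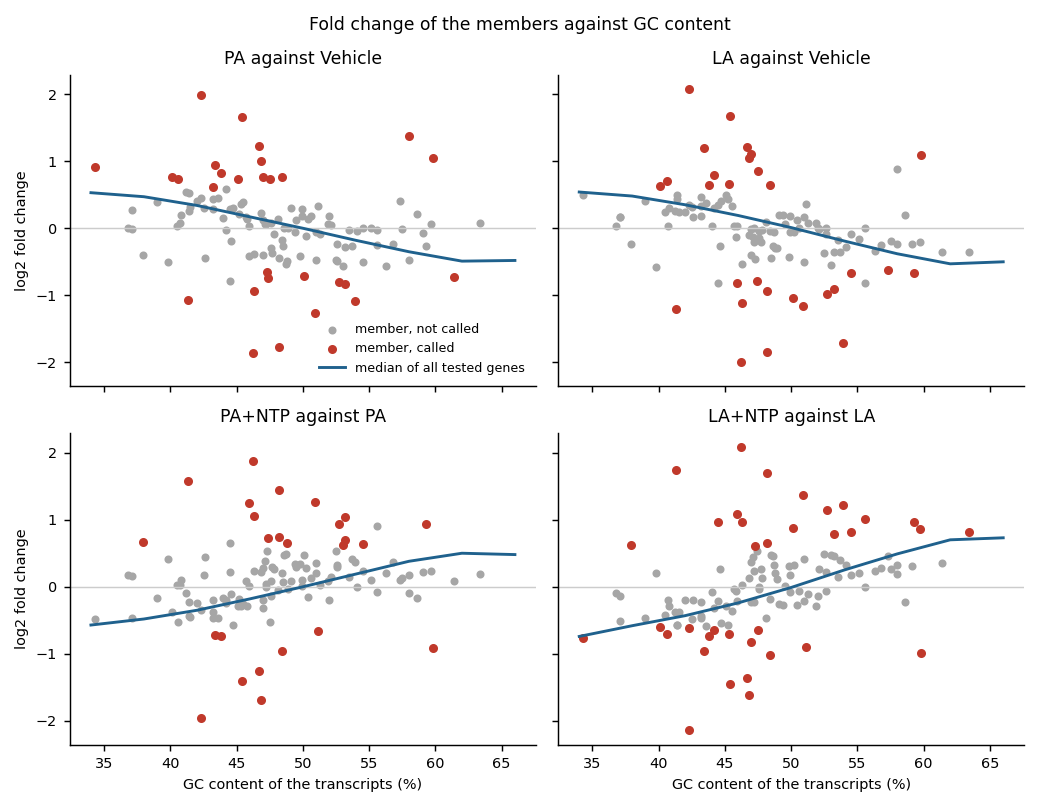
Log2 fold change of the members with a GC value against the GC content of their transcripts in each of 4 comparisons (red, called; grey, not called), with the median of all tested genes in bins of 4 percentage points (line). The line falls from left to right in PA and LA against Vehicle and rises in both NTP comparisons.

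Shared sequence and overlapping exons were common. Of the 120 members with a transcript in the GENCODE annotation of GRCm38, 28 had at least 50% of their 31-base sequences in transcripts of other genes, 20 of them pseudogenes. For 8 of the 120, 7 of them pseudogenes (among them Gm13363, Gm3219 and Gm7367), the GENCODE transcript is under 50% as long as the one counted, so shares and GC content describe only part of those RNAs. An exon of another gene, small RNAs aside, overlapped 47 members, among them 5 Snhg genes and 35 other long noncoding RNAs. Of the nearest coding genes, 97 were tested. The member's call was shared by 0 of the 11 neighbours of members higher in PA (6.0% of all genes) and 2 of the 10 of members lower (8.92%). For LA these were 0 of 10 and 1 of 14 (3.53% and 7.11%). For NTP over PA they were 1 of 15 and 0 of 7 (8.74% and 5.11%), and over LA 1 of 17 and 0 of 12 (11.7% and 7.57%). The neighbours with a shared call were Acmsd and Gsk3a, which overlap exons of 2900009J06Rik and 9130221H12Rik on the opposite strand. Without strand the same reads may give both calls, so these are not agreements of separate genes.

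Genes for proteins that handle noncoding RNA were read from lists. Of all genes, 6.0% were higher and 8.92% lower in PA, 3.53% and 7.11% in LA, 8.74% and 5.11% for NTP over PA, and 11.7% and 7.57% for NTP over LA, and after the GC trend was removed 458 and 746, 125 and 339, 563 and 290, and 521 and 284 of the 14097. Of 14 genes for snoRNP proteins, which form the particles that carry the snoRNAs of the Snhg introns, 4 were higher in PA (Dkc1, Gar1, Naf1 and Ruvbl1, by 0.67, 0.66, 0.64 and 0.71) and 0 lower. In LA and in LA+NTP against LA 0 were called, and in PA+NTP against PA 1 was lower (Znhit6). With the GC trend removed, 2 were higher in PA (Gar1 and Ruvbl1) and 1 in LA, and 3 were lower for NTP over PA and 2 for NTP over LA. Of 18 genes for the nuclear exosome and its cofactors, which degrade noncoding transcripts, 2 were higher and 0 lower in PA, 0 and 1 in LA, 0 and 2 for NTP over PA, and 2 and 1 for NTP over LA. After the GC trend was removed the counts were 4 and 0, 0 and 0, 0 and 1, and 0 and 0. Of 10 genes for paraspeckle proteins, Matr3 was called in all 4 comparisons (0.64, 0.61, -0.68 and -0.85) and Tardbp in PA (0.66) and in LA+NTP against LA (-0.63), and none of these calls was made after the GC trend was removed. Of 15 genes for nonsense-mediated decay, which removes many spliced Snhg transcripts, 0 were called in PA, LA or PA+NTP against PA. Smg5 and Smg9 were higher in LA+NTP against LA, and neither was called after the GC trend was removed, when the only call was Eif4a3, higher in PA.

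Marker genes were checked against the label. The 10 hepatocyte markers summed to 8608 and 8278 FPKM in Vehicle, 6898 and 6385 in PA, 8609 and 7342 in PA+NTP, 8248 and 8200 in LA, and 9817 and 9334 in LA+NTP, with Trf the most abundant. The 8 Kupffer cell markers summed to between 126 (LA) and 297 FPKM (PA+NTP), mostly Cd68, the 8 stellate cell or fibroblast markers to between 25.3 and 33.4 (most abundant Dcn), and the 6 endothelial markers to between 28.3 and 41.4 (most abundant Cdh5). The cholangiocyte sum was mostly Spp1, with a mean of under 0.1 FPKM for Krt7 and Cftr, the listed lymphocyte markers summed to at most 0.22 FPKM and the erythroid markers to at most 0.90, and no neutrophil marker was listed. In PA against Vehicle 4 hepatocyte markers were lower (Ttr -0.94, Apoa1 -1.32, Serpina1c -0.99 and Hnf4a -0.73), as were 5 of the 8 stellate cell or fibroblast markers (Lrat, Reln, Col1a1, Pdgfrb and Acta2), Cd5l (Kupffer cell, -1.11) and Krt19 (cholangiocyte, -1.22), and the Kupffer cell marker Marco was higher (2.46), where 8.92% of all genes were lower and 6.0% higher. In LA, Cd68 (-0.67) and Col1a1 (-0.74) were lower. With NTP, Cd5l, Col1a1, Pdgfrb and Sox9 were higher over PA (0.65, 0.72, 0.78 and 0.66) and Apoa1, Col1a1 and Des over LA (0.65, 0.84 and 0.73). In such bulk samples fewer cells of a type and less RNA per cell cannot be told apart, and the part of the fall of the hepatocyte sum in PA in the members' results was not tested.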

How the data were processed

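Expected counts and FPKM per gene are the values the authors deposited; their processing notes name mm10, HISAT, Bowtie2 and RSEM without versions. A missing value was taken as 0. Members and lists were chosen with earlier results of these data known.

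Rounded expected counts were tested with edgeR 4.0.16 in R 4.3.3: filterByExpr, TMM factors (0.977 to 1.037), 1 factor of 5 groups over 10 libraries and the quasi-likelihood test. The filter dropped 3958 of 18055 gene IDs and 14097 were tested, with a biological coefficient of variation of 0.0682. Calls need a fold of at least 1.5 and a p under 0.05 after Benjamini-Hochberg adjustment. The SE is that of the log2 fold change. limma 3.58.1, DESeq2 1.42.0, python 3.11.15, pandas 2.3.3 and numpy 2.4.6 were also used. NOISeq, named in the study methods, was not run.

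GC content, shared 31-base sequences, neighbours and overlaps come from GENCODE vM21 transcripts on GRCm38, found for 120 members (92.3%), and gene types from the RefSeq table. Exon overlaps leave out small RNAs, an exclusion added after a first count that included them. The GC trend is a loess curve (span 0.4) per library, and 10 members without a GC value were left uncorrected.

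Genes were named by rule: every Snhg gene, the 5 most abundant of each class, the 6 largest called changes in each direction of the first 4 comparisons, and members of fixed lists. Others were named after their values were seen, and IDs without a name are limited to 2.

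With 2 libraries per group the tests rest on variance shared between genes. Strandedness is not stated, so antisense pairs are uncertain. Reads shared between pseudogenes and parents were divided by RSEM's estimate. No group received NTP alone, so its effect without FFA is unknown. The GC trend is reversed in both groups given FFA without NTP, PA and LA, so it cannot be separated from those comparisons here. Transcripts were not assembled from reads, and no protein or small RNA was measured.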

Additional observations from a re-analysis of the deposited data

How the results depend on the processing

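Without the fold threshold, adjusted p under 0.05 alone called 35 members higher and 29 lower in PA against Vehicle, 27 and 31 in LA against Vehicle, 28 and 26 in PA+NTP against PA, and 34 and 38 in LA+NTP against LA. In PA+NTP against Vehicle it called 10 higher. The shares of all genes at this threshold are not given, so these counts do not compare the members with other genes.

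With the GC trend removed, 10 members were lower in LA+NTP against LA, where 19 had been, and 11 with the replicate block as well. For PA+NTP against LA+NTP it left 1 higher and 1 lower, against 182 and 313 of all 14097 genes. In LA+NTP against Vehicle, where 0 were higher, 2 were higher without a filter on low counts, 1 with only the groups compared and 1 with the GC trend removed and the replicate block. The matching counts over all genes under these settings are not given, so they do not compare the members with other genes. Without the filter the difference between the NTP effects was called for 8 members and 65 of all genes, where 0 had been.

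Leaving out 1 library at a time gave 9 to 19 members lower in PA+NTP against PA, 2 to 7 higher and 2 to 5 lower in PA+NTP against Vehicle, and 0 to 1 higher in LA+NTP against Vehicle. The matching ranges over all genes are not given.

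A replicate block kept all calls of the first 4 comparisons (32, 32, 28 and 39) and added 0. Replicate numbers did not pair the libraries, with correlations of deviations between -0.069 and 0.127. DESeq2 kept 32 of 32, 32 of 32, 27 of 28 and 38 of 39. With limma on log2(FPKM + 1) fewer were kept: 28 of 32, 28 of 32, 24 of 28 and 33 of 39.

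For the 90 called results of 29 members named by rule, 1800 alternative values were computed: 1723 gave the same call, 77 lost it and 0 reversed it, and 68 results kept their call under every alternative. Many of the 1800 could hardly differ, because most single-library fits leave out a library of a group outside the comparison. Members without a GC value were not corrected in the GC fits either. The 1723 is therefore not a measure of how firm the calls are. Members named outside the rule, among them H2-Q5, H2-K2, D930048N14Rik and Smim4, are not in this tally. Calls were lost in 15 cases with the GC trend removed, 14 with the block as well, 7 with limma on log2(FPKM + 1), 6 with limma on log2(FPKM + 0.1), 4 with library-size scaling, 2 with DESeq2 and 1 with the filter at a mean FPKM of 1. Among these 90 results, leaving out 1 library lost 3 (Vehicle replicate 1) and 4 (2), 3 and 3 for PA, 0 and 3 for PA+NTP, 1 and 4 for LA, and 4 and 3 for LA+NTP.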
